A study of Mus musculus with 54 samples.

Results

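A set of 8 channel genes whose products carry or shape the inward currents of suprachiasmatic nucleus (SCN) neurons were followed over 6 timepoints: the sodium channel genes *Scn1a*, *Scn3a*, *Scn8a* and *Scn2b*, the leak channel gene *Nalcn*, and the pacemaker channel genes *Hcn2*, *Hcn3* and *Hcn4*. They were chosen by name, and all 8 were among the 30031 genes of the count table. The tissue was SCN cut out by laser-capture microdissection from male C3H/HeH mice aged 10-12 weeks and kept under a 12:12 light/dark cycle. The column names mark all replicates WT (wild type), and the labels name no drug. Brains were taken at Zeitgeber time (ZT, hours after lights on) 2, 6, 10, 14, 18 and 22, with 3 biological replicates (A, B and C) per timepoint, each a pool of 5 animals sequenced on 3 lanes. The 18 pools held between 15412981 and 35820945 counted reads. A p-value here measures the spread between pools, not between single animals, and in captured tissue fewer cells of a type cannot be told apart from less RNA per cell.

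Neurons of the SCN, the master clock of mammals, fire spontaneously, faster by day than by night. Voltage-gated sodium channels (Nav) open on depolarisation and drive the action potential, each made of one pore-forming alpha subunit with auxiliary beta subunits. NALCN passes a background sodium leak that depolarises the resting membrane, and this leak is known to be larger by day in clock neurons. HCN channels open on hyperpolarisation, are helped open by cyclic nucleotides and carry the pacemaker current of heart and brain.

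Tissue and timepoint labels were first set against marker genes. The summed level of 8 SCN neuron markers (*Avp*, *Vip*, *Grp*, *Six6*, *Nms*, *Prok2*, *Rorb* and *Lhx1*) lay between 1520 and 5222 CPM (counts per megaread, TMM-normalised), and that of markers of neighbouring hypothalamic neurons between 17.3 and 87.9 CPM. Glia were well represented, with oligodendrocyte markers summing to 1267 to 6071 CPM and astrocyte markers to 1640 to 5235 CPM. In every ZT14 and ZT18 replicate the oligodendrocyte sum (4716 to 5903 and 5075 to 6071 CPM) lay above the SCN sum (1520 to 2085 and 2123 to 2535 CPM). The part of oligodendrocytes in the channel results was not tested. *Per2* had its highest mean at ZT6 (123 ± 60.0 CPM, SD, n = 3) and its lowest at ZT22 (10.9 ± 4.02), and *Arntl* was highest at ZT14 and lowest at ZT6. The ZT6 mean of *Per2* rested on replicate C (192 CPM). Replicates A and B (92.6 and 84.8 CPM) lay below the ZT10 replicates (96.7, 105 and 116 CPM). The legend of the study's ordination names timepoint and sequencing batch as what separated the libraries. In the counts the timepoints fell into 3 clusters, since ZT22 and ZT2, ZT6 and ZT10, and ZT14 and ZT18 were each other's nearest (root mean square difference of log2(CPM + 1) between replicates of 0.558, 0.757 and 0.786, against 0.888 to 1.28 for the other pairs). The labels name no batch, so between these clusters the timepoint and a batch that follows them cannot be told apart, and differences inside a cluster are given beside those across clusters.

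The alpha subunit genes lie in 2 places. On GRCm38, *Scn3a* (chr2:65457118-65567627) and *Scn1a* (chr2:66270778-66440840) share a stretch of chromosome 2 with *Scn2a* (chr2:65620771-65767447), whereas *Scn8a* lies at chr15:100869858-101045938. *Scn2b* is at chr9:45117782-45130070, *Nalcn* at chr14:123276634-123627144, *Hcn2* at chr10:79716634-79736108, *Hcn3* at chr3:89146074-89160196 and *Hcn4* at chr9:58823412-58863175. *Hcn3* shares 711 exonic bases, 17.1% of its exons, with *Pklr* on the other strand, and the library kit did not mark strand. *Pklr* itself had 19 reads over the 18 replicates against 6179 for *Hcn3*. How reads that match several alpha subunits were assigned is not given in the sources used here.

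Upstream sequence is shown for the pairs *Scn1a* with *Scn8a* and *Hcn2* with *Hcn4*. The members of each pair had alike time courses without the GC and length offset described below. With that offset *Hcn2* and *Hcn4* differed between clusters of libraries in opposite directions. Each line holds the 250 bases before a RefSeq transcription start (GRCm38.p6), read 5′ to 3′ on the gene's strand, with every CG in capitals. *Scn1a* (chr2:66440838-66441087, minus strand) holds 4 CG, *Scn8a* (chr15:100870395-100870644, plus strand, the first of its 2 listed promoters) 30, *Hcn2* (chr10:79716384-79716633, plus strand) 16 and *Hcn4* (chr9:58822699-58822948, plus strand) 25. The bases checked just after the *Hcn4* start matched no GENCODE transcript of *Hcn4*, and this start lies upstream of the gene position given above. Those of *Scn1a*, *Scn8a* and *Hcn2* matched a transcript of their gene.
Scn1a: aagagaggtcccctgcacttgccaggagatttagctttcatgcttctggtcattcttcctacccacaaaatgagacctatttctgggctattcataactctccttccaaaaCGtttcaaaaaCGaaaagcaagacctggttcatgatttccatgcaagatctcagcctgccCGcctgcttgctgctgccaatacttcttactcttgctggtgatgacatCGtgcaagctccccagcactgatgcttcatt
Scn8a: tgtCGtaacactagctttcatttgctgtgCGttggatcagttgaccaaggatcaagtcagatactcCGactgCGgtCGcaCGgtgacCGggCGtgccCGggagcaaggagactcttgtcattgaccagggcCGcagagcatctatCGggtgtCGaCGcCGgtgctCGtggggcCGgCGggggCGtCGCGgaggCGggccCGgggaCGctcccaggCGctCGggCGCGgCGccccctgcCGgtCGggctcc
Hcn2: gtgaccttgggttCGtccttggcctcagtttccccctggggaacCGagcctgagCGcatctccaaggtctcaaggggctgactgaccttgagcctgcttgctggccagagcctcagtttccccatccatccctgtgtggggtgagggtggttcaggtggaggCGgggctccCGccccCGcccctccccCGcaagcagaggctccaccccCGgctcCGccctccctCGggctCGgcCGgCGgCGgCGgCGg
Hcn4: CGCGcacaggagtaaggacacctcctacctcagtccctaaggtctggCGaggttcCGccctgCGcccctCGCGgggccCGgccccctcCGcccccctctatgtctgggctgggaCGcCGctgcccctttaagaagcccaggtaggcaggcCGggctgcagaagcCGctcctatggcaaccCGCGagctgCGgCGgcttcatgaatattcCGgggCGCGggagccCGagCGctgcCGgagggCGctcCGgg

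The RefSeq table held promoters for 6 of the 8 genes. Each promoter of 300 bases (250 before to 50 after the start) was searched on both strands for the E-box CACGTG, the D-box TTATGTAA, the cAMP response element TGACGTCA and its half-site TGACG, which the full element contains. Among all 32851 promoters, 7.15% held the E-box, 0.938% the D-box, 1.79% the full element and 20.8% the half-site. The D-box was found in *Scn1a*, starting 2 bases before the transcription start, and none of these letters was found in the promoters of *Scn8a*, *Scn2b*, *Nalcn*, *Hcn2* or *Hcn4*. The *Scn1a* match is shown with 11 bases before it and 5 after it (chr2:66440827-66440850, minus strand), the motif in capitals.
Scn1a D-box: ctgatgcttcaTTATGTAAgtctg

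Levels between genes were compared per length, as reads per kilobase of exon and megaread (RPKM). *Scn2b*, the beta2 subunit, which is linked to alpha subunits by a disulphide bond, stood far above the other members at 145 ± 57.9 RPKM (SD, n = 18). *Scn3a* (Nav1.3) at 8.36, *Nalcn* at 8.21, *Scn8a* (Nav1.6, the main channel of the axon initial segment) at 6.88 and *Scn1a* (Nav1.1, prominent in inhibitory neurons) at 6.56 RPKM were close to each other, with SDs between 2.79 and 3.49 that span the gaps. *Hcn3* (3.17 RPKM), *Hcn2* (1.25) and *Hcn4* (0.531) followed. With the longest transcript in place of the merged exons, *Nalcn* passed *Scn3a* and the other 6 kept their rank. *Hcn2* and *Hcn4* rested on few reads, 25 to 228 and 4 to 181 per replicate, against 443 or more for each sodium channel gene and *Nalcn*.

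**Figure D1:**
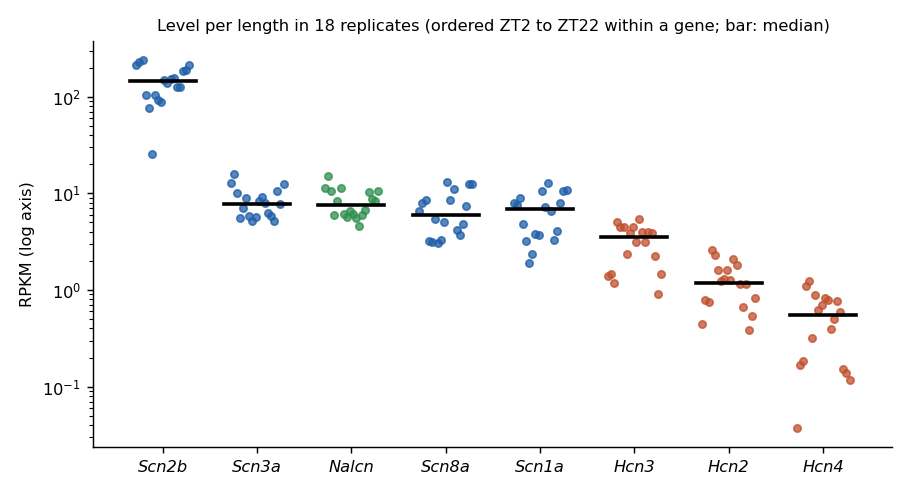
Level per length (RPKM, log axis) of the 8 channel genes in each of the 18 replicates; points run from ZT2 to ZT22 within a gene and the bar is the median. *Scn2b* lies above all other members in every replicate, and the HCN genes form the lower end.

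All 8 genes passed the test for any change over the 6 timepoints (edgeR quasi-likelihood test, Benjamini-Hochberg adjusted p between 7.41e-05 for *Scn8a* and 0.0125 for *Hcn2*), as did 44.0% of all 18941 tested genes. In each of the 8, the replicates of the highest and the lowest timepoint did not overlap, which held for 76.8% of all genes. The ratio of the highest to the lowest timepoint mean ran from 2.27 (*Nalcn*) to 6.85 (*Hcn4*). The highest mean fell at ZT2 in 3 members, at ZT6 in 3 and at ZT14 in 2, against 19.2%, 19.8% and 18.6% of all genes. *Scn1a* and *Scn8a* were highest at ZT14 and ZT22, *Scn2b*, *Scn3a* and *Nalcn* were highest at ZT2, and the HCN genes were lowest at ZT22 and ZT2, a direction that turned for *Hcn2* with an offset for GC content and length.

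**Figure D2:**
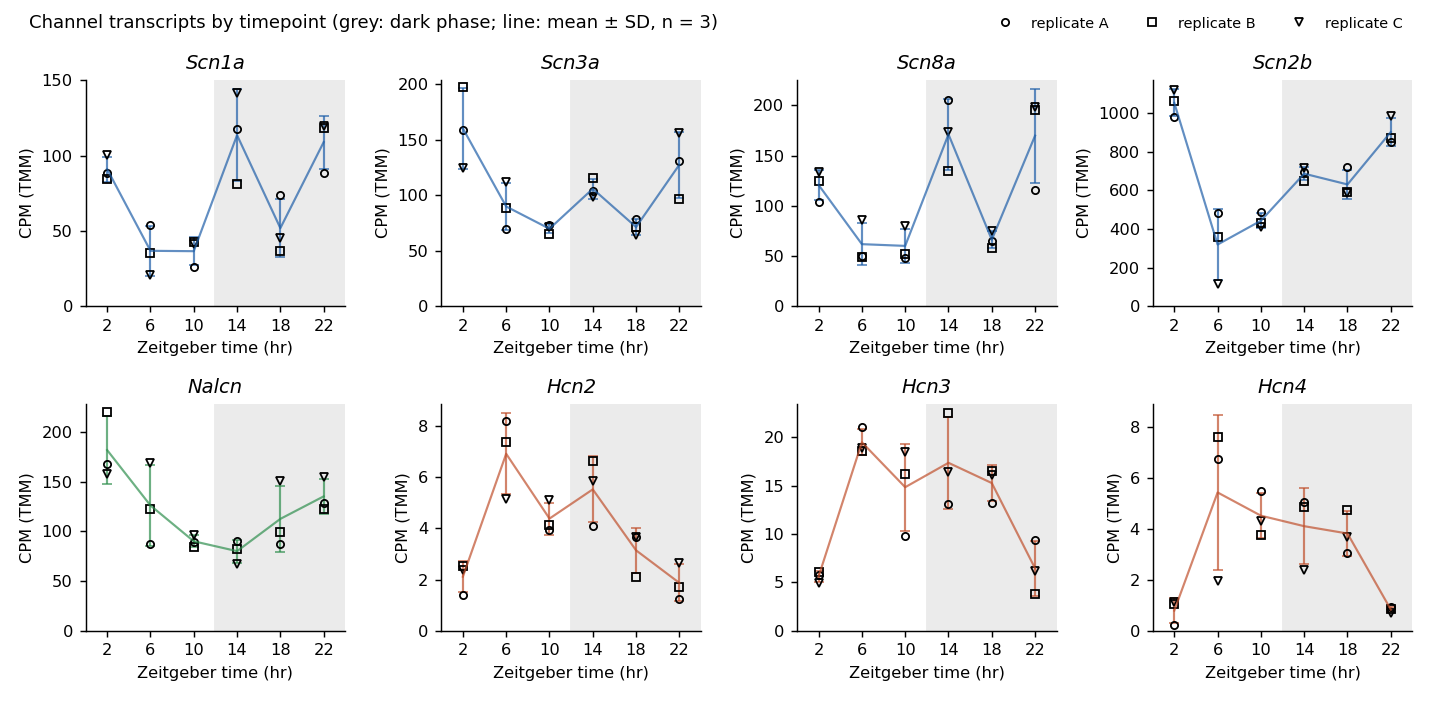
CPM of each channel gene against Zeitgeber time; symbols are the 3 replicates, lines and bars the mean ± SD, grey the dark phase. *Scn1a* and *Scn8a* show maxima at ZT14 and ZT22 with a dip at ZT18, and *Hcn3* and *Hcn4* have all their ZT22 and ZT2 replicates below those of the other timepoints.

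*Scn8a* was at similar high levels in early and late night. Its replicates A, B and C stood at 205, 135 and 173 CPM at ZT14 and at 116, 195 and 199 CPM at ZT22. At ZT18, between these timepoints, they stood at 65.5, 58.6 and 75.1 CPM. ZT14 and ZT18 did not overlap, while ZT22 replicate A lay among the ZT2 values of 104, 125 and 134 CPM. By day the replicates were lower, at 50.6, 49.1 and 86.2 CPM at ZT6 and 48.6, 52.1 and 79.9 CPM at ZT10. In the order of timepoint means, the one step without overlap was that from ZT2 down to ZT18.

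*Scn1a* followed the same order of timepoints. It stood at 118, 81.1 and 142 CPM at ZT14 and at 88.6, 119 and 119.6 CPM at ZT22. The values were 73.6, 37.0 and 45.2 CPM at ZT18 and 88.6, 84.2 and 100.2 CPM at ZT2. All ZT14 replicates again lay above all ZT18 replicates, although by a narrower gap than in *Scn8a*. The lowest values were at ZT6 (54.2, 35.5 and 21.0 CPM) and ZT10 (26.0, 42.6 and 41.3 CPM).

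*Scn1a* and *Scn8a* thus met the twin-peaking rule, which asks for a passed time test and the highest 2 means at ZT14 and ZT22, as did 2.15% of all genes. Twin-peaking was called for 2 of 8 members under every time test tried and without any 1 replicate. Inside the cluster of ZT14 and ZT18 libraries, *Scn8a* was higher at ZT14 by a log2 difference of 1.37 ± 0.27 (SE, adjusted p = 0.0296 by edgeR), the one member called there against 0.412% of all genes called in that direction. The call was lost without any one of the 6 ZT14 and ZT18 replicates (adjusted p between 0.0669 and 0.158) and after an offset for GC content and length (0.87 log2, adjusted p = 0.129). *Scn1a* differed by 1.13 ± 0.32 (adjusted p = 0.106), and was called by DESeq2 (1.09 log2, adjusted p = 0.0213). The replicates of ZT14 and ZT18 did not overlap in 4 members (*Scn1a*, *Scn3a*, *Scn8a* and *Hcn2*), against 21.8% of all genes.

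The contrast that joins both peaks, ZT14 and ZT22 minus ZT18 and ZT2, called no member by edgeR, against 0.148% of all genes. At an unadjusted p under 0.05, 3 members (*Scn1a*, *Scn8a* and *Nalcn*) and 10.6% of all genes passed, and DESeq2 called 1 member, *Scn8a*. For *Scn8a* the log2 difference was 0.93 ± 0.19 (adjusted p = 0.0509), for *Scn1a* it was 0.69 ± 0.22 (adjusted p = 0.221), and for *Nalcn* it was negative, at -0.46 ± 0.17 (adjusted p = 0.291). At ZT22 against ZT2, inside the other cluster, *Scn8a* differed by 0.49 ± 0.26 and *Scn1a* by 0.26 ± 0.31, and no member was called by edgeR (0.0317% of all genes were), none had an unadjusted p under 0.05 (3.59% of all genes had) and DESeq2 called none either.

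Some markers of other cells moved with these peaks. The summed level of 5 markers of telencephalic excitatory neurons (*Slc17a7*, *Neurod6*, *Tbr1*, *Emx1* and *Nrgn*) ranged between 219 and 382 CPM at ZT14 and between 54.5 and 135 CPM at ZT18. At ZT22 it ranged between 94.7 and 253 CPM and at ZT2 between 50.8 and 114 CPM. All 5 had a positive difference at ZT14 against ZT18, and *Slc17a7* passed the test. Of 8 pan-neuronal markers, *Syt1* (0.95 log2, edgeR adjusted p = 0.0245) and *Rbfox3* (1.60 log2, adjusted p = 0.0242) were called higher at ZT14 than at ZT18. Both were also called by edgeR in the contrast of both peaks (adjusted p = 0.0463 each). So was *Slc17a7* (1.76 log2, edgeR adjusted p = 0.0262), alone among the telencephalic markers. At ZT14 against ZT18 the 8 pan-neuronal markers lay on both sides of 0, with *Stmn2* at -0.32, *Elavl4* at -0.23 and *Uchl1* at -0.20 log2. The SCN neuron markers summed to between 1520.2 and 2085 CPM at ZT14, below every ZT18 replicate (between 2123 and 2535 CPM), and the pan-neuronal markers to between 6341 and 8094 CPM at ZT14 and between 4983 and 6765 CPM at ZT18. *Vip* carried most of the SCN sum. None of the 8 SCN markers was called at ZT14 against ZT18, and they lay on both sides of 0, from *Nms* at -0.76 to *Prok2* at 1.55 log2. The part of these markers in the *Scn1a* and *Scn8a* differences was not tested.

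**Figure D3:**
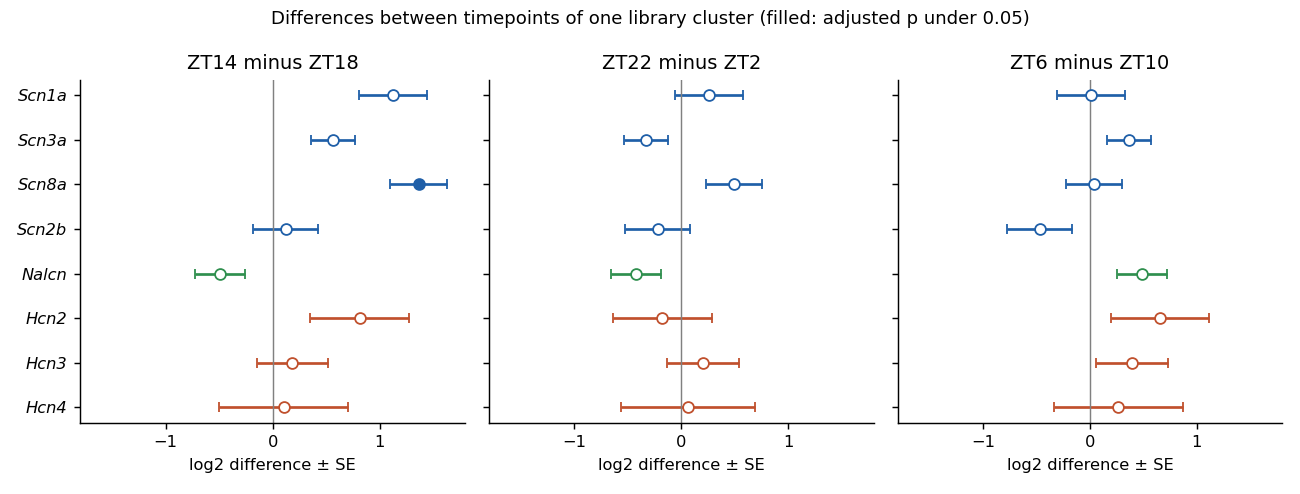
Log2 difference ± SE of each channel gene between the 2 timepoints of a library cluster, from the edgeR fit; filled symbols have an adjusted p under 0.05. Of the 24 differences, that of *Scn8a* between ZT14 and ZT18 is the one filled symbol.

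*Scn2b* was high at ZT22 and ZT2 and low at ZT6 and ZT10. Its replicates stood at 848, 874 and 985 CPM at ZT22 and 980.4, 1061 and 1119 CPM at ZT2, at 696, 650.3 and 715 CPM at ZT14 and 719, 589.8 and 585 CPM at ZT18. They stood at 485, 358 and 118 CPM at ZT6 and 487, 430.4 and 414 CPM at ZT10. The clusters formed 3 tiers without overlap: all 6 ZT22 and ZT2 replicates lay above the rest and all 6 ZT6 and ZT10 replicates below it. ZT6 replicate C was by far the lowest. The pan-neuronal sum had the same order of clusters, with timepoint means of 7694 to 9013 CPM, 6015 to 7492 CPM and 4818 to 5515 CPM, and so had that of 6 astrocyte markers, with 4109 to 4641 CPM, 3110.2 to 3283 CPM and 1869 to 2268 CPM. Their part in the *Scn2b* result was not tested. Between clusters lay 89.1% of the variance of the timepoint means of *Scn2b* (log2 scale), against a median of 77.2% over all genes, and no difference inside a cluster was called.

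*Scn3a* and *Nalcn* shared the high point at ZT2. *Scn3a* stood at 158, 197 and 125 CPM at ZT2 and at 130.4, 96.3 and 156 CPM at ZT22, with its lowest mean at ZT10 (69.9 ± 4.21 CPM, SD, n = 3). At ZT14 it stood at 104, 115 and 98.3 CPM and at ZT18 at 78.3, 71.9 and 64.0 CPM. These did not overlap, with a log2 difference of 0.57 ± 0.21 (edgeR adjusted p = 0.222). The time test of *Scn3a* did not hold with the GC and length offset (adjusted p = 0.0682). No step between neighbouring timepoints in its order of levels was free of overlap.

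*Nalcn* ran from a high in early day to a low in early night. It stood at 167, 220.2 and 157 CPM at ZT2, 87.0, 122 and 168 CPM at ZT6 and 89.1, 84.4 and 96.3 CPM at ZT10. It was lowest at ZT14, at 90.1, 82.6 and 67.4 CPM. It stood at 87.7, 99.4 and 150.3 CPM at ZT18 and 128, 122 and 155 CPM at ZT22. The ZT2 replicates lay above all ZT22 replicates, which held for 1 of 8 members and for 11.6% of all genes in either direction; the log2 difference of ZT22 from ZT2 was -0.43 ± 0.24 (edgeR adjusted p = 1.00). ZT18 replicate C, the library with the fewest reads, and ZT6 replicate C each stood well above their fellow replicates.

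A 24-hr cycle (time test and JTK_CYCLE, a rank test for a periodic wave with an exact null) was called for 4 of 8 members, against 29.9% of all genes. *Nalcn* cycled with its best lag at ZT2 (exact JTK_CYCLE p = 0.000986), *Scn2b* at ZT22 (p = 0.013), and *Hcn2* and *Hcn4* at ZT10 (p = 0.013 each). With JTK_CYCLE p-values adjusted over all genes, *Nalcn* was the one member left and the other 3 had an adjusted p of 0.0528. The twin-peaking *Scn1a* and *Scn8a* were not called cycling (exact p = 0.144 and 0.401).

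Light and dark phases of the cycle (ZT2, ZT6 and ZT10 against ZT14, ZT18 and ZT22) differed in 2 members, both lower by day, where 14.3% of all genes were called lower and 9.56% higher. *Scn1a* had a log2 difference of day from night of -0.79 ± 0.18 (edgeR adjusted p = 0.00434) and *Scn8a* of -0.70 ± 0.15 (adjusted p = 0.0028). *Scn2b* gave -0.46 ± 0.18 (adjusted p = 0.0644), and was called without ZT6 replicate A or C and with at least 10 counts in every replicate (adjusted p = 0.0401). *Nalcn* gave 0.25 ± 0.14 and the HCN genes between -0.03 and 0.33, none past the test, although *Nalcn* was called with the GC and length offset (0.35, adjusted p = 0.0410). This contrast runs across clusters of libraries.

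The HCN genes were low together around dawn (ZT22 and ZT2), *Hcn2* not so with an offset for GC content and length. *Hcn4*, the slowly opening isoform of the sinoatrial node, stood at 0.942, 0.845 and 0.717 CPM at ZT22 and 0.226, 1.03 and 1.12 CPM at ZT2, which rest on 26, 23 and 20 and 4, 24 and 29 reads. Its replicates stood at 6.72, 7.63 and 1.94 CPM at ZT6 and 5.48, 3.78 and 4.29 CPM at ZT10. They stood at 5.05, 4.88 and 2.39 CPM at ZT14 and 3.04, 4.75 and 3.66 CPM at ZT18. All 6 dawn replicates lay below the other 12, of which ZT6 replicate C was the lowest. That library had 41 reads of *Hcn4* in the count table but 0 in the reads recovered from the normalised table, with which the time test of *Hcn4* did not pass (adjusted p = 0.103).

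*Hcn3* stood at 9.42, 3.78 and 6.13 CPM at ZT22 and 5.77, 6.11 and 4.93 CPM at ZT2. It stood at 21.0, 18.6 and 18.8 CPM at ZT6 and 9.80, 16.2 and 18.5 CPM at ZT10, and at 13.1, 22.5 and 16.4 CPM at ZT14 and 13.1, 16.5 and 16.1 CPM at ZT18. Again all 6 dawn replicates lay below the other 12, ZT22 replicate A and ZT10 replicate A coming closest to each other. *Hcn3* forms a little-studied HCN isoform that is known to respond weakly to cyclic AMP.

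*Hcn2*, a widespread brain isoform that responds strongly to cyclic AMP, stood at 1.23, 1.73 and 2.65 CPM at ZT22 and 1.41, 2.54 and 2.39 CPM at ZT2. It stood at 8.20, 7.39 and 5.16 CPM at ZT6 and 3.93, 4.12 and 5.10 CPM at ZT10. It stood at 4.10, 6.62 and 5.86 CPM at ZT14 and 3.65, 2.12 and 3.66 CPM at ZT18. The ZT6 and the ZT14 replicates lay above those of the timepoint that followed, ZT10 and ZT18, but ZT18 replicate B lay inside the dawn range. The differences were 0.66 ± 0.46 for ZT6 minus ZT10 and 0.81 ± 0.46 for ZT14 minus ZT18 (log2, edgeR adjusted p = 0.623 and 0.475). At ZT6 against ZT10 *Hcn3* was free of overlap as well, against 12.4% of all genes, and no member was called by edgeR or DESeq2 or had an unadjusted p under 0.05 (0.0475% of all genes were called by edgeR and 10.8% had such a p).

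The share of the variance of the timepoint means that lay between library clusters had a median of 77.2% over all genes. It was 99.4% in *Hcn4*, 96.3% in *Hcn3* and, near that median, 80.8% in *Hcn2*. In *Scn8a* it was 61.3%, in *Nalcn* 67.4%, in *Scn3a* 74.6% and in *Scn1a* 77.4%. The longest HCN transcripts are rich in G and C, at 65.4% (*Hcn2*, above 99.7% of 15627 genes), 58.0% (*Hcn3*) and 58.0% (*Hcn4*), against 42.1% to 50.8% in the other members. Across all genes the log2 difference of the ZT6 and ZT10 libraries from the ZT22 and ZT2 libraries had a median of -0.27 in the 10% of genes lowest in GC and 1.19 in the 10% highest in GC. *Hcn2* at 1.47 lay between the quartiles of genes with 64 to 66% GC (1.03 and 2.54), and *Hcn3* at 1.51 between those of genes with 58 to 60% GC (0.17 and 1.78). *Hcn4*, at 2.50, lay above that upper quartile.

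An offset for GC content and length, added after the data had been seen, changed the differences between clusters, taken here as log2 of the cluster's mean CPM rather than the mean of log2 values above. Those of the ZT6 and ZT10 and of the ZT14 and ZT18 libraries from the ZT22 and ZT2 libraries became -0.69 and -0.53 in *Hcn2*, against 1.50 and 1.12 before, so the direction turned. In *Hcn3* they became 0.79 and 0.46 against 1.51 and 1.44, and in *Hcn4* 1.87 and 1.32 against 2.61 and 2.28. The values with the offset include a prior count of 2 and those without it do not, so they are not strictly on one scale. With that prior count and no offset, the ZT6 and ZT10 difference (mean of log2 values) was 1.47 in *Hcn2*, 1.51 in *Hcn3* and 2.50 in *Hcn4*. With the offset the time test was passed by 5 of 8 members and missed by *Hcn2* (adjusted p = 0.281), *Hcn3* (0.132) and *Scn3a*. Of the other members, the difference of the ZT6 and ZT10 from the ZT22 and ZT2 libraries shrank from -0.55 to -0.10 in *Nalcn*, from -0.85 to -0.38 in *Scn3a* and from -1.44 to -0.96 in *Scn1a*, and in *Scn8a* and *Scn2b* it became -0.81 and -0.99. Under DESeq2 size factors, upper-quartile scaling and the recovered reads the 3 HCN genes kept positive differences and the other 5 members negative ones. The summed level of the astrocyte markers ranged around dawn between 3558 and 4596 CPM at ZT22 and between 4067 and 5235 CPM at ZT2, against 1640 to 3590 CPM elsewhere, and its part in the HCN result was not tested.

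**Figure D4:**
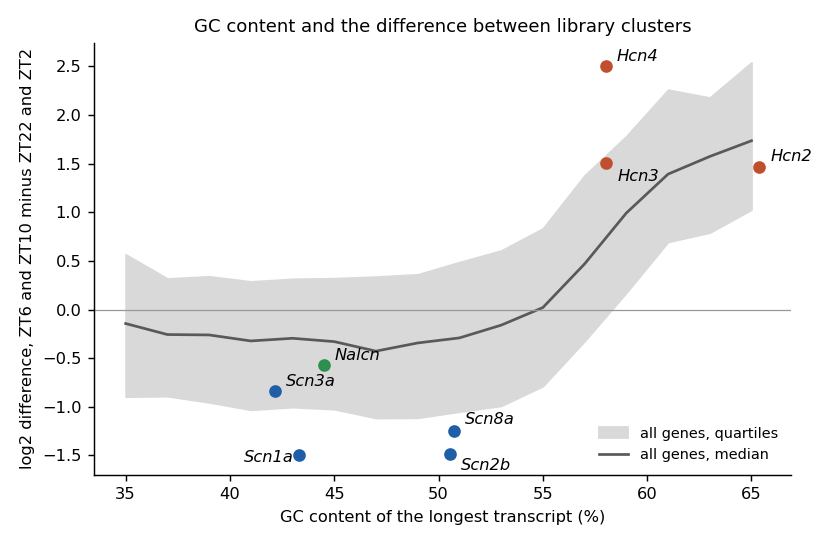
Log2 difference of the ZT6 and ZT10 libraries from the ZT22 and ZT2 libraries against the GC content (%) of each gene's longest transcript; the line is the median and the band the quartiles of 15627 genes in steps of 2% GC, and coloured points are the 8 channel genes. *Hcn2* and *Hcn3* lie inside the band, *Hcn4* above it, and *Scn1a*, *Scn8a* and *Scn2b* below it; with the GC and length offset the sign of *Hcn2* turns.

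Within each family the shares of the summed RPKM were compared. The 5 well-expressed alpha subunits (*Scn1a*, *Scn2a*, *Scn3a*, *Scn8a* and *Scn9a*) summed to 66.3 ± 10.3 RPKM at ZT2, 61.8 ± 10.98 at ZT22 and 55.2 ± 5.19 at ZT14 (SD, n = 3). The sum was lower at ZT6 (35.8 ± 3.28), ZT18 (31.9 ± 4.26) and ZT10 (31.2 ± 1.87 RPKM). *Scn8a* made up 19.6% ± 2.60 of this sum at ZT14 and 10.9% ± 3.15 at ZT6, and *Scn1a* 18.3% ± 3.51 and 9.53% ± 5.18. *Scn2a* (Nav1.2) held the most at every timepoint, between 36.5% and 42.6% on average. Of the sum of *Hcn2*, *Hcn3* and *Hcn4*, *Hcn3* held the most, between 61.3% ± 7.77 at ZT6 and 69.4% ± 3.77 at ZT18, and *Hcn4* between 5.85% ± 3.45 at ZT2 and 13.7% ± 5.46 at ZT10.

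Other genes of these channels were read from lists: 24 were listed, 23 were in the count table (*Sptbn4* was not analysed here) and 21 were tested, since *Scn4a* and *Scn11a* had too few reads. Of these, 12 passed the time test (57.1%, against 44.0% of all genes), 7 were called cycling (29.9% of all genes) and 2 twin-peaking (2.15%). Among the remaining alpha subunits 3 of 5 passed, among the listed beta subunits 2 of 2, among channel partners 4 of 6, in the NALCN complex 2 of 4 and among HCN partners 1 of 4. In the ZT14 minus ZT18 contrast 1 companion was called (0.57% of all genes in either direction). The median log2 difference was 0.48 over the companions, 0.38 over the 8 members and 0.01 over all genes. Over 15627 genes this difference rose with transcript length (Spearman correlation 0.255) and with GC content (0.136). The longest transcripts of the members exceed 50.6% (*Hcn2*) to 98.7% (*Scn8a*) of these genes in length. The part of length in these medians was not tested.

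*Nedd4l*, a ubiquitin ligase that removes sodium channels from the membrane, was that companion. It stood at 126, 123 and 94.9 CPM at ZT14 and 61.5, 69.4 and 51.1 CPM at ZT18, a log2 difference of 0.92 ± 0.18 (edgeR adjusted p = 0.0304), and it passed the contrast of both peaks as well (0.66 ± 0.13, adjusted p = 0.0463). The ZT14 against ZT18 call was lost without any one of the 6 ZT14 and ZT18 replicates (adjusted p between 0.0608 and 0.158) and with the GC and length offset (0.170), and that of both peaks with the replicate block (0.0617). Its ZT14 replicates lay above all others. *Pex5l* (TRIP8b, an HCN trafficking subunit) met the twin-peaking rule too, with 24.8 ± 8.19 CPM at ZT14, 18.9 ± 4.74 at ZT22 and 7.93 ± 1.72 at ZT10 (SD, n = 3), and missed the time test without the ZT6 and ZT10 libraries (adjusted p = 0.0984). *Scn4b*, the subunit linked to resurgent current, ranged over 22.9-fold between timepoint means, with 338, 443 and 49.5 CPM at ZT14 and 14.4, 8.38 and 13.5 CPM at ZT10. Its ZT14 replicate C lay within the ZT18 values of 48.4, 39.8 and 54.3 CPM.

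*Scn2a* was highest at ZT2 (363 ± 96.7 CPM) and lowest at ZT18 (151 ± 57.3 CPM), and *Scn3b* highest at ZT22 (118 ± 20.3 CPM) and lowest at ZT10 (46.3 ± 6.68 CPM; SD, n = 3 throughout). *Fgf12* and *Fgf14*, intracellular factors that bind the tails of alpha subunits, were lowest at ZT6 (46.6 ± 8.90 and 35.8 ± 6.65 CPM) and highest at ZT22 (127 ± 7.54 CPM) and ZT2 (166 ± 18.3 CPM). Each of these 4 passed the time test, while *Scn2a* and *Scn3b* missed it with the GC and length offset (adjusted p = 0.0761 and 0.0739), and *Scn3b* also without the ZT6 and ZT10 libraries (0.457). *Scn10a* had 56, 39 and 11 reads at ZT22, 0 in all ZT6 and ZT10 replicates and at most 7 elsewhere.

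For the NALCN complex, the large subunit gene *Unc79* followed *Nalcn* in its high point, with 57.0 ± 7.75 CPM at ZT2 and 18.1 ± 4.91 CPM at ZT10. *Unc80* was not called (adjusted p = 0.077; called without ZT6 replicate A or ZT18 replicate C), with ZT6 replicates at 139.9, 173 and 304 CPM. *Fam155a*, which encodes the extracellular subunit, was highest at ZT10 (87.6 ± 7.35 CPM) and lowest at ZT2 (35.3 ± 9.08 CPM), and its time test did not pass without the ZT6 and ZT10 libraries (adjusted p = 0.578).

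**Figure D5:**
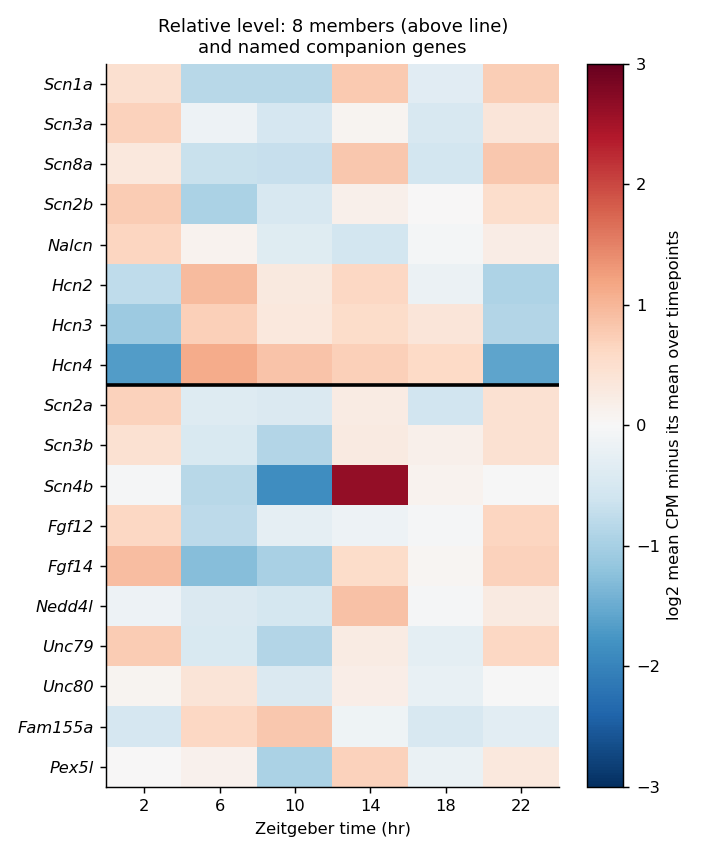
Log2 of the mean CPM at each timepoint minus its mean over the 6 timepoints, for the 8 channel genes (above the line) and 10 named companion genes (*Scn10a*, with means of 0, is left out). *Scn1a*, *Scn8a*, *Nedd4l* and *Pex5l* have their highest means at ZT14 and ZT22, and *Hcn2*, *Hcn3* and *Hcn4* are low at ZT22 and ZT2, a direction that turns for *Hcn2* with the GC and length offset.

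Across the 18 replicates, which share clusters of libraries, the log2 CPM of *Scn1a* and *Scn8a* had a Pearson r of 0.82, and of *Hcn2*, *Hcn3* and *Hcn4* between 0.77 and 0.80 per pair. Each of the 3 HCN genes had a negative r with each of the other 5 members. These correlations were taken without the GC and length offset, with which the difference of *Hcn2* between clusters turned. Among 9611 genes with a mean of at least 10 CPM, the genes most like *Scn8a* were *Thy1* (r = 0.94) and *Egr1* (r = 0.93), those most like *Scn1a* *Cacng3* (r = 0.94) and *Smad3* (r = 0.93), and those most like *Scn3a* *Grb10* (r = 0.93) and *Uhmk1* (r = 0.92). For *Scn2b* they were *Gm13509* (r = 0.97) and *Glmp* (r = 0.97), and for *Nalcn* *Dcun1d1* (r = 0.89) and *Eif2s3x* (r = 0.87). For *Hcn2* they were *Gnao1* (r = 0.91) and *Aatk* (r = 0.89), for *Hcn3* *Rusc2* (r = 0.92) and *Rps10-ps1* (r = 0.92), and for *Hcn4* one was *Wbp11* (r = 0.95).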

How the data were processed

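RNA of the captured tissue was amplified with the SMARTer kit and sequenced as 100-bp read pairs. The authors trimmed the reads, mapped them to mm10 by GSNAP, and took counts for each Ensembl gene from HTSeq 0.5.4p1. The deposited count table holds raw counts, with lanes combined into 18 replicates (0 sample columns unused). A second deposited table holds normalised signal (counts over a size factor, by DESeq2), from which 100% of values gave whole reads within 0.01. For ZT6 and ZT10 few genes have the same reads in both tables, 8.72% to 12.1% of genes with reads per replicate. In the replicates of the other timepoints 92.7% to 94.2% have. For the members, the recovered reads at ZT6 and ZT10 differed from the counts by -0.954% (*Scn2b*, ZT10) to -19.6% (*Hcn2*, ZT6), summed over replicates. Comparisons with ZT6 or ZT10 rest on the count table, except where the recovered reads are named.

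A gene entered the test when more than 6 replicates had 1 read or more. The main test was that of edgeR 4.0.16 (quasi-likelihood, TMM, one fit to all replicates, Benjamini-Hochberg, threshold 0.05) in R 4.3.3. DESeq2 1.42.0, limma 3.58.1 (cosinor), other scalings, filters and left-out replicates were alternatives. JTK_CYCLE was rewritten in Python 3.11.15 (period 24 hr, 6 lags). The main edgeR fit and JTK_CYCLE were tested on simulated data, the other steps were not. Log2 values for correlations used a prior count of 2. Symbols, lengths and positions came from GENCODE M21, promoters from RefSeq (GRCm38.p6). RPKM is CPM per kilobase of merged exons. Named companions are *Scn2a*, *Unc79*, *Unc80* and the 8 others with the smallest adjusted time-test p whose extreme timepoints did not overlap. The members, lists and tests were chosen with earlier results of these data known. A few other listed or matching genes are not reported here.

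Replicate letters did not pair the pools (correlations of same-letter deviations between -0.19 and 0.10 over 45 pairs), so they only name samples.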

Additional observations from a re-analysis of the deposited data

How the results depend on the processing

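Over 29 alternative settings, no contrast that was called changed its sign, and 1676 of 1712 values of the 8 members stayed on their side of the threshold. Of 1059 contrast values of the members, 44 had the other sign, in 16 contrasts and with an adjusted p of 0.464 or more each, and the untested difference of *Hcn2* between clusters turned with the GC and length offset. The members passing the time test numbered 8 in all 18 fits without 1 replicate and 5 with the GC and length offset (chosen after seeing the data, as was leaving out ZT6 and ZT10). *Hcn2* missed the time test with no filter on low counts (adjusted p = 0.0576) and without ZT6 and ZT10 (0.0611). *Hcn4* could not be fitted with at least 10 counts in every replicate. For ZT14 minus ZT18, members called went from 1 to 2 with DESeq2 and 0 with the GC and length offset, and ranged from 0 to 1 without 1 replicate. For ZT14 and ZT22 minus ZT18 and ZT2, DESeq2, the filter of at least 10 counts, no filter, the replicate block and the recovered reads each called 1 member (*Scn8a*) in place of 0, and fits without 1 replicate called 0 to 1, with *Scn8a* called without ZT6 replicate C, ZT10 replicate C or ZT22 replicate A (adjusted p between 0.0122 and 0.0465). Cycling members fell from 4 to 1 with JTK_CYCLE p-values adjusted over genes and were 4 to 5 without 1 replicate. *Hcn3* was added by cosinor regression, the recovered reads and leaving out ZT10 replicate A, and *Scn1a* by leaving out ZT14 replicate C, while *Hcn2* was lost with the GC and length offset (p = 0.401 by the exact test) and with no filter, and *Hcn4* with the recovered reads (p = 0.0549). The replicate block changed no other member's call, and of the companions it ended the *Nedd4l* call for both peaks and brought *Unc80* past the time test (adjusted p = 0.0439). The *Nedd4l* call for both peaks was also lost with DESeq2 size factors (0.0573), upper-quartile scaling (0.0602), the GC and length offset (0.0892), without ZT6 and ZT10 (0.0506) and without any one of 13 replicates (0.0520 to 0.173). The causes were not tested.

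Counts over all genes moved more. ZT14 minus ZT18 called 108 genes, but 844 with DESeq2, 71 with upper-quartile scaling, 245 with at least 10 counts, 3 with the GC and length offset and 0 to 225 without 1 replicate. ZT14 and ZT22 minus ZT18 and ZT2 called 28, but 460 with DESeq2, 17 with DESeq2 size factors, 13 with upper-quartile scaling, 133 with at least 10 counts, 110 with no filter, 52 with the recovered reads, 5 with the GC and length offset, 4 without ZT6 and ZT10, and 0 to 124 without 1 replicate. ZT22 minus ZT2 called 6 (1 to 34 over all settings) and ZT6 minus ZT10 called 9 (2 to 252). The time test called 8343, and 5461 without ZT6 and ZT10. Depth was lowest for *Hcn2* (25 to 228 reads per replicate) and *Hcn4* (4 to 181).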
